A study of Caenorhabditis elegans with 2 samples.

Results

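The genes described here are the peptide genes of Caenorhabditis elegans whose names begin with flp, nlp or ins and a number, together with daf-28, set against binding regions of the nuclear hormone receptor NHR-84. They were taken by name from the protein-coding genes of the Ensembl annotation (build WBcel235, the same assembly as ce11), and 141 of 19973 coding genes met the rule: 31 flp genes, 71 nlp genes and 39 insulin-like genes, daf-28 among the last. The name rule used no measured value. The study has 1 group of 2 samples, labelled biological replicates 1 and 2, of chromatin immunoprecipitated from whole first-stage (L1) larvae of strain OP357. Animals of both sexes were pooled, and they carry the unc-119(tm4063) mutation on chromosome III and the integrated transgene wgIs357, from which NHR-84 with a GFP-FLAG tag at its C-terminus is stably expressed. The labels do not give the promoter of the transgene or the cells that express it, and they name no change at the nhr-84 gene itself. With no second condition, the comparisons are among the 3 families and with all coding genes. Genes are not replicates of a condition, so counts are given beside those of all coding genes and no test was made.

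Neuropeptides are made as precursor proteins that enter the secretory pathway, are cut at basic residues by convertases such as EGL-3, trimmed by the carboxypeptidase EGL-21, and packed into dense core vesicles whose release needs UNC-31. The flp genes encode FMRFamide-like peptides, the nlp genes encode other neuropeptide-like proteins, and most of both act on G protein-coupled receptors. Insulin-like peptides act through a single receptor tyrosine kinase, DAF-2, which signals through AGE-1 and the AKT kinases to the transcription factor DAF-16, and this pathway controls entry into the dauer larva and arrest of L1 larvae without food.

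For each gene the window ran from 2000 bp upstream to 500 bp downstream of its 5' end, and the region of highest signal with its summit in that window was taken. The signal is the peak caller's own value per region, with its scale not stated, so values are compared within a list only. Each list, 1 for each replicate and 1 for both pooled, holds 30000 regions ranked by signal and so includes background by construction. In the pooled list the signal was 175 at its highest, 34.2 at rank 1000, 20.4 at the median and 16.2 at its end. In replicates 1 and 2 the medians were 11.7 and 11.5 and the values at rank 1000 were 20.1 and 20. The deposit also gives 106 peaks under the name IDR (irreproducible discovery rate, a procedure that compares the ranking of regions between replicates), and these are exactly the 106 highest pooled regions. Read counts are not part of these lists, so depth is unknown and a signal comes without a counting error. In whole animals, binding in a few neurons and weaker binding in many cells cannot be told apart.

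The DNA at 4 summits carries the main results: the highest region of the insulin-like genes (ins-39), of the nlp genes (nlp-32) and of the flp genes (flp-1), and the region of ins-17 directly upstream of its 5' end. The stretches run 50 bp to each side of the pooled summit, on the strand of the gene, 5' to 3', from the RefSeq WBcel235 genome, at chrX:1345049-1345149 (minus strand), chrIII:486329-486429 (minus), chrIII:4477621-4477721 (minus) and chrIV:9144943-9145043 (plus). Capitals mark any match to the words searched, named further on.
ins-39: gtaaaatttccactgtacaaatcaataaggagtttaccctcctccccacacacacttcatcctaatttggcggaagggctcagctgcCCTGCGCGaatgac
nlp-32: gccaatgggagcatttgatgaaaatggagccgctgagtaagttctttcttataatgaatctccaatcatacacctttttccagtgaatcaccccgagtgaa
ins-17: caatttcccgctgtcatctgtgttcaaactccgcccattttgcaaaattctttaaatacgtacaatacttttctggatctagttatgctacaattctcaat
flp-1: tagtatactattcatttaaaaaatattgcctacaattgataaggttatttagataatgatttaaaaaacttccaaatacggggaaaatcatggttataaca

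The ins-39 stretch has a GC content of 48.5%, against 41.6% at nlp-32, 35.6% at ins-17 and 23.8% at flp-1. All regions of the members, counted once each, averaged 35.7% ± 7.5 (SD, 76 regions), and all pooled regions 36.9% ± 7.9 (SD, 30000 regions).

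Peptide genes had a region about as often as other coding genes, and strong regions were few. A pooled region lay in the window of 79 of the 141 members (56%), against 57.4% of all coding genes. By family these were 18 of 31 flp genes (58.1%), 37 of 71 nlp genes (52.1%) and 24 of 39 insulin-like genes (61.5%), all near the background of 57.4%. Only ins-39 and nlp-32 had a best region among the 1000 highest of the pooled list, 1.42% of members against 3.99% of all coding genes. An IDR peak lay in the window of ins-39 alone, 0.709% of members against 0.611%. None of the 31 flp genes had a region in the top 1000, which allows a share of up to 9.68% (3 of 31), above the background, so a lower share was not detectable at this number of genes. With the limit at rank 5000, 18 members (12.8%) were within it, against 14.5% of all coding genes. They were 2 flp, 13 nlp and 3 insulin-like genes (6.45%, 18.3% and 7.69%). Of the 13 nlp genes, nlp-30, nlp-31 and nlp-34 were counted on the same region, at rank 4940. The best region of nlp-4 lay 73 bp from the start of exos-3. Shared regions were counted for each gene in the share of all coding genes too.

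The median best signal was close to that of all coding genes too. It was 20.9 over the 79 members and 21.7 over the 11459 coding genes with a region, with interquartile ranges of 18 to 25 and 18.8 to 26.1. The families had medians of 21.1 (flp), 22.4 (nlp) and 19.5 (ins), so each median lay inside the interquartile range of all coding genes. In rank these were 13020, 10326 and 17426 of 30000, against 11640 for all coding genes. The order of the families was not the same in the replicates. In replicate 1 the median best ranks were 17488 for flp, 17429 for nlp and 14391 for the insulin-like genes, and in replicate 2 they were 11621, 12178 and 12407. All coding genes had medians of 11582 and 11765 there. The insulin-like genes, lowest of the 3 families in the pooled list, were thus the highest of the 3 in replicate 1 and close to the other families in replicate 2. In these lists too the shares with a region were near the background, 55.3% in replicate 1 against 57.8% and 59.6% in replicate 2 against 57.7%.

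**Figure D1:**
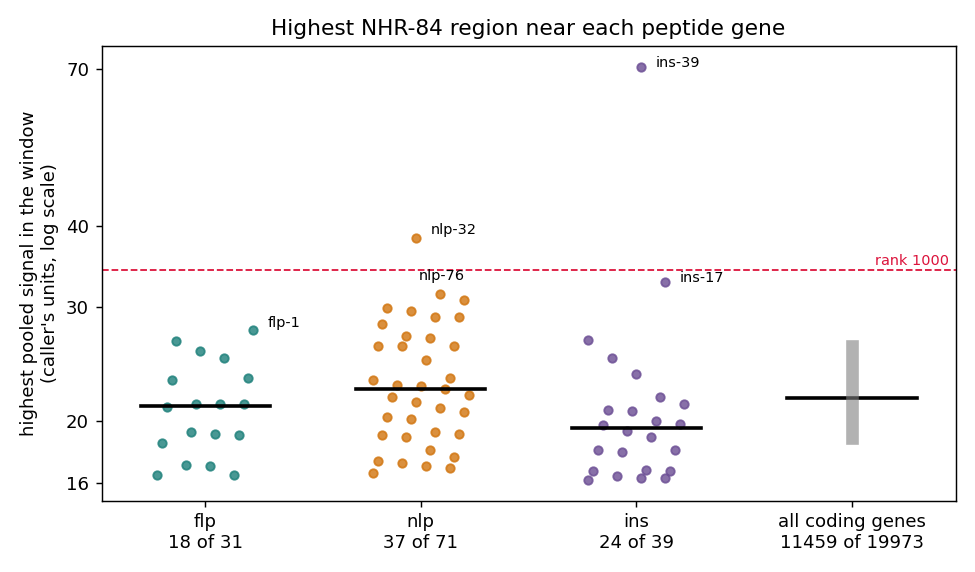
Highest pooled signal in the window of each gene (caller's units, log axis), 1 point per gene, by family, with the number of genes that have a region under each name. Black lines are medians, the grey bar is the interquartile range of all coding genes, and the dashed line is the signal at rank 1000. The family medians of 21.1, 22.4 and 19.5 lie within the grey bar, and ins-39 at 70.6 stands above every other member.

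ins-39, an insulin-like gene, had the one region of the pooled list that was both in the top 1000 and upstream of a member within the window. The gene (WBGene00017668) lies on X at 1343758 to 1344421 on the minus strand. Its pooled region, 1344947 to 1345250, had a signal of 70.6 and rank 32, with the summit 678 bp upstream of the gene in intergenic sequence and in no other coding gene's window. Both replicates held a strong region there, at a signal of 36.1 (rank 42, 672 bp upstream) in replicate 1 and 34.1 (rank 55, 576 bp upstream) in replicate 2. The 2 replicate summits were 96 bp apart. The summit of replicate 2 was 102 bp from the pooled one, just past the 100 bp used for matching, so this gene is not counted among those matched in both. The caller's q-value of the pooled region was 0.0794, the lowest of any member's best region. The highest, 0.919, was that of ins-17, whose signal was 32.8. The q-value thus did not fall steadily with signal, as ins-4 had 0.781 at a signal of 16.4. The other pooled regions of its window, 1457 and 114 bp upstream, were near the end of the list at signals of 17.2 and 16.8.

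The next insulin-like genes had moderate regions that the replicates ranked differently. ins-17, whose product has been described as an antagonist of DAF-2 signalling, had its best pooled region 99 bp upstream (signal 32.8, rank 1272), with signals of 21.3 in replicate 1 (rank 680) and 12.8 in replicate 2 (rank 10249) at that summit. A second region 1337 bp upstream had a pooled signal of 29.2. ins-1, the gene most like human insulin and also described as an antagonist, had a pooled signal of 26.7 (rank 4414) at 1499 bp upstream, with 14.5 in replicate 1 and 11.8 in replicate 2. ins-21 followed with 25 (rank 6174) at 613 bp upstream, with 11.2 in replicate 1 and 14.4 in replicate 2. ins-3, an agonist, had 23.6 (rank 8241) at 538 bp upstream, matched in replicate 2 (signal 10.9) and not in replicate 1.

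daf-28, ins-4 and ins-6 encode agonists that keep larvae out of the dauer stage. daf-28 (V, 19815133 to 19816454, plus strand) had a signal of 19.8 (rank 16717) with its summit 92 bp inside the gene, in the 5' UTR, and signals of 9.12 in replicate 1 and 9.82 in replicate 2. ins-6 had 20.7 (rank 13973) at 459 bp downstream of its 5' end, with 13.1 in replicate 1. Its best signal in replicate 2 was 9.1, elsewhere in the window at 1103 bp upstream. ins-4 had 16.4 (rank 29383) at 1430 bp upstream, with 11 in replicate 2 and no region in replicate 1. ins-7, another agonist, had 16.7 (rank 27900) in its own intron, with no summit there in either replicate, and neighbouring ins-8 shares that region. ins-18, an antagonist, had 19.3 (rank 18066) in its intron, with 14.3 in replicate 1 and no summit within 100 bp in replicate 2. These 5 genes had signals below the median of 21.7 of all coding genes with a region, daf-28 and ins-6 above the median of 19.5 of the insulin-like genes, and ins-3, the agonist given before them, above both.

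Of the nlp genes, nlp-32 had the highest region. The gene (WBGene00003770) lies on III at 486114 to 486547 on the minus strand, and the summit lay 168 bp inside it, in its intron. The pooled signal was 38.4 (rank 502), with 21.9 in replicate 1 (rank 559) and 19.4 in replicate 2 (rank 1209). Both replicates thus placed a summit within 100 bp there, and its q-value was 0.791. nlp-76 followed with a pooled signal of 31.4 (rank 1698) at 1098 bp upstream, in an intron of the neighbouring receptor gene nhr-17. Its window held 5 pooled regions, the highest number of any member. The replicates differed in which region was highest. It had 26.5 (rank 190) at 1101 bp upstream in replicate 2, and 21 (rank 767) at 196 bp downstream in replicate 1. Near the latter, replicate 2 had 22.2 (rank 522) at 313 bp downstream. Stronger pooled regions lay further upstream, outside the window and beyond the 5' end of nhr-17. One at -4418 bp from the 5' end of nlp-76 had a signal of 45.3 (rank 198), with 28 in replicate 1 (rank 125) and 27.6 in replicate 2 (rank 156), and one at -5804 bp had 37.1 (rank 618), with 17.4 and 19.1 in replicates 1 and 2.

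nlp-19 had 30.8 (rank 1937) in its own coding sequence, 40 bp past the 5' end, with 20.7 in replicate 1 (rank 833) and 12.5 in replicate 2 (rank 11257), whose summit was over 100 bp from the pooled one. nlp-51 had 29.9 (rank 2316) at 1625 bp upstream with 12 and 13.9 in replicates 1 and 2, and nlp-9 had 29.6 (rank 2445) in its intron with 9.08 and 19.7. The replicates differed widely at that last summit, where nlp-9 ranked 29938 in replicate 1 and 1103 in replicate 2. nlp-22, a peptide of the sleep-like state at the moults, had 22.7 (rank 9671) at 321 bp upstream, in the 3' UTR of nlp-23, found in replicate 2 alone (11.9). nlp-12, a cholecystokinin-like peptide gene, had no pooled region, no region in replicate 2, and 2 weak regions in replicate 1, both with a signal of 10.6.

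nlp-29, on V, is the best known of the nlp genes that encode antimicrobial peptides of the epidermis. It had no pooled region, with signals of 15.6 (rank 4449, 1329 bp upstream) in replicate 1 and 13.6 (rank 7944, 88 bp downstream) in replicate 2. Its neighbours on V, nlp-27, nlp-28, nlp-30, nlp-31 and nlp-34, were looked at after their values were seen. They are not a full list of the antimicrobial nlp genes, and no such list was used. nlp-27 and nlp-28 had no region in any of the 3 lists. nlp-30, nlp-31 and nlp-34 have windows that overlap and shared 1 best region, of signal 26.1 and rank 4940, in the coding sequence of nlp-31, at the upper quartile of all coding genes with a region (26.1). With nlp-30, nlp-31 and nlp-34 sharing 1 region and ins-7 and ins-8 sharing another, the 79 members with a region rested on 76 distinct regions.

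The flp genes had the narrowest range, from 16.5 to 27.6. The highest, flp-1, which affects locomotion, had a pooled signal of 27.6 (rank 3631) 288 bp past its 5' end, in an intron of flp-1 and of the overlapping gene daf-10, with 15.4 in replicate 1 (rank 4811) and 12.2 in replicate 2 (rank 12336). flp-14 had 26.6 (rank 4512, 17.2 in replicate 2 and no region in replicate 1), and its summit lay in its own intron, 469 bp past the 5' end. flp-3 had 25.6 (rank 5480) at 156 bp upstream, with 15.2 in replicate 1 and 9.39 in replicate 2. flp-27 had 25 (rank 6163) at 457 bp downstream, with 16.9 in replicate 1 and a best region of 12.9 elsewhere in its window in replicate 2. flp-15 had 23.3 (rank 8653) at 49 bp upstream, with 13.5 in replicate 1 and no region in replicate 2. These 5 highest flp regions all ranked below the top 3000. flp-11, whose peptides promote sleep from the neuron RIS, had 21 (rank 13207) at 787 bp upstream, with 11.4 in replicate 2 and none in replicate 1. flp-18 and flp-21 both encode ligands of the receptor NPR-1. flp-18 had 21.2 (rank 12828) at 330 bp upstream, with 9.08 (rank 29156) in replicate 2 at that site. Its best signal in replicate 2 was 10.6, at 275 bp downstream, and it had no region in replicate 1. flp-21 had no region in any of the 3 lists.

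Several of the strongest regions of the genome lay beside peptide genes but outside the window. Of the 1000 highest pooled regions, 9 (0.9%) had the 5' end of a member as the nearest coding 5' end, and members are 0.706% of coding genes. Of these 9, 4 were IDR peaks, 3.77% of the 106, and 2 of the 9 were inside the window. The highest was at nlp-40, an intestinal peptide that times the defecation cycle through the receptor AEX-2. That region (I, 16901 to 17204) had a pooled signal of 90.3 (rank 16), with 36.1 (rank 41) in replicate 1 and 51 (rank 14) in replicate 2. Its summit lay 5558 bp from the 5' end of nlp-40 and 216 bp past the 3' end of the gene, between nlp-40 and rcor-1, a gene that runs towards it from the other side. In the window at its 5' end nlp-40 had no pooled region, and signals of 10.1 in each replicate at different sites.

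The nearest coding gene of 2 further IDR peaks was ins-13, but both sat at spliced leader RNA genes. The first, 1140 bp downstream of the 5' end of ins-13, had a pooled signal of 82.9 (rank 23) with its summit 17 bp from sls-2.2, and the second, 564 bp downstream, had 58.6 (rank 61) with its summit 27 bp from sls-2.3. Both summits were outside the window, the second by the smaller distance. In its window ins-13 had a signal of 18 (rank 22519), 55 bp upstream. A peak of rank 49 (signal 61.5) lay 862 bp downstream of the 5' end of nlp-4, 43 bp from the snoRNA gene F59C6.15, and was found in replicate 1 (rank 21) with no summit within 100 bp in replicate 2. A peak of rank 26 (76.7) lay 1919 bp downstream of the 5' end of ins-17 and 265 bp upstream of the ribosomal protein gene rps-1, with 19.3 in replicate 1 and 52.9 in replicate 2. The regions of rank 424 at ins-37, 611 at nlp-52, 612 at nlp-3 and 745 at flp-15 (signals of 39.7, 37.2, 37.2 and 36) were also outside, between 1130 and 1480 bp downstream of the 5' end. The first 3 lay past the 3' end of the gene and the one at flp-15 in its intron. A further region near ins-37, of rank 480 (38.7), was nearer to F08G2.5. ins-39 and nlp-32 are the members whose regions in the top 1000 lay inside, at 678 bp upstream and 168 bp downstream.

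**Figure D2:**
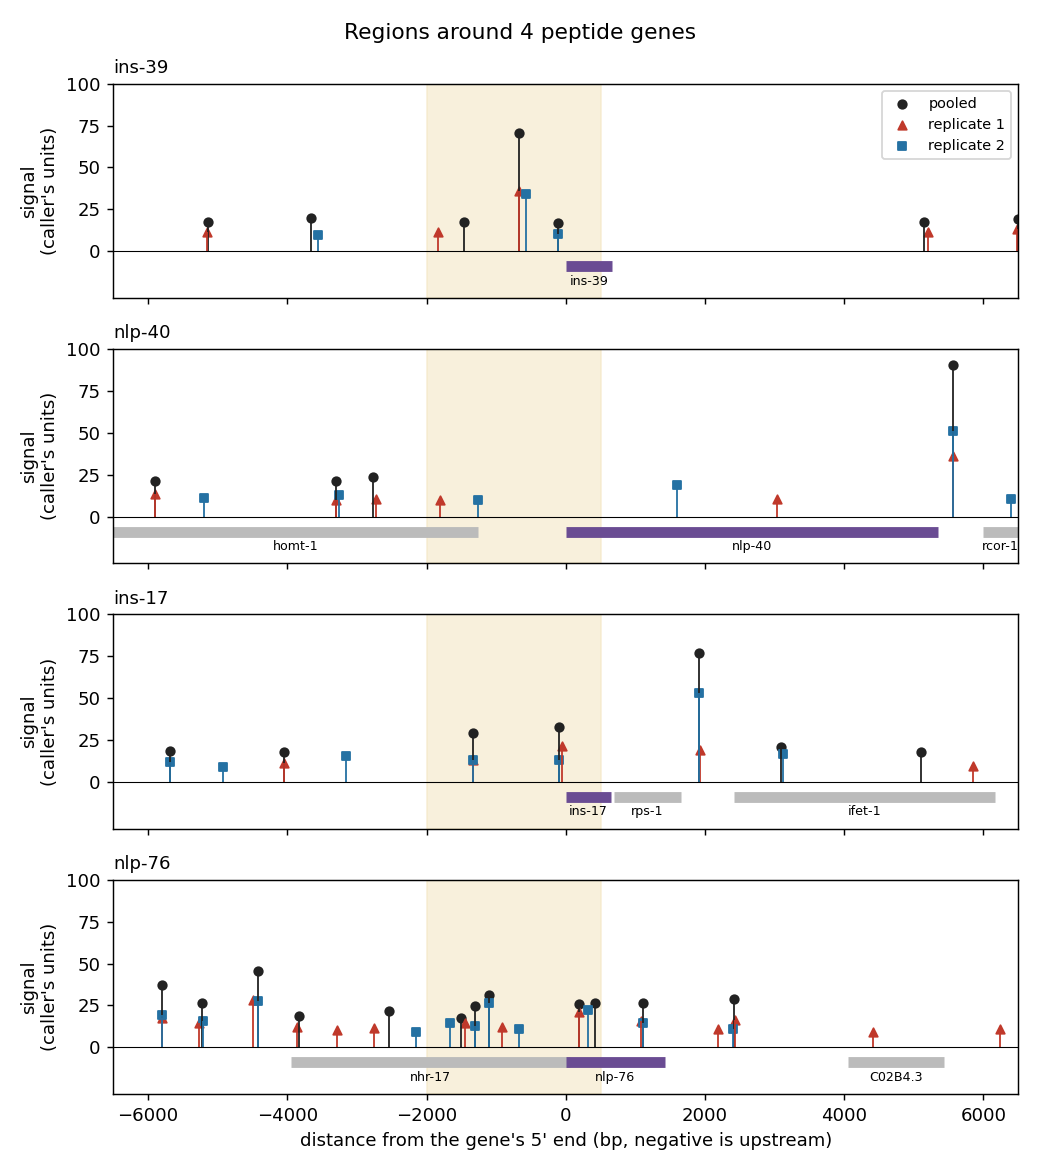
Signal of every region (caller's units) against the distance of its summit from the gene's 5' end, for ins-39, nlp-40, ins-17 and nlp-76, with circles for the pooled list, triangles for replicate 1 and squares for replicate 2. The shaded span is the window, purple bars are the named gene and grey bars are other coding genes. The strong region of ins-39 is inside the window, and those of nlp-40 (90.3) and at rps-1 beside ins-17 (76.7) are outside, as are those of 45.3 and 37.1 upstream of nlp-76.

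Most genes with a strong region in either replicate had it in 1 only, among members as among all coding genes. Over all coding genes, 768 had a best region in the top 1000 of replicate 1, 756 of replicate 2 and 209 of both. In replicate 1, 5 members had a best region in the top 1000 (3.55%, against 3.85% of all coding genes): ins-39, nlp-32, ins-17, nlp-76 and nlp-19. In replicate 2 there were 3 (2.13%, against 3.79%): ins-39, nlp-76 and nlp-63. nlp-63 was seen only there (signal 20.2, rank 962, 74 bp downstream) and had no region in the window in the other lists. ins-39 and nlp-76 were in the top 1000 of both, 2 of 141 members against 1.05% of all coding genes. For nlp-76 the best summits differed, as given above. Near its best summit of replicate 1 (196 bp downstream), replicate 2 also had a region in the top 1000 (rank 522, 313 bp downstream). Any region in both replicate lists was found for 50 members (35.5%), against 38.6% of all coding genes. A region in none of the 3 lists was the case for 24 members (17%), against 21% of all coding genes, and these were 7 flp, 11 nlp and 6 insulin-like genes.

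A minority of the pooled summits had a summit within 100 bp in both replicates. This held for 16 of the 141 members, against 3023 of 19973 coding genes (15.1%). Of genes with a pooled region these were 20.3% of members and 26.4% of all coding genes, by family 2 of 18 flp, 10 of 37 nlp and 4 of 24 insulin-like genes. A further 53 of the 79 members with a pooled region had a match in 1 replicate, against 7042 of 11459 coding genes. Another 10 members had a match in neither (12.7%, against 12.2% of all coding genes with a pooled region). Over the 50 members with a region in both lists, the best ranks had a Spearman rho of 0.30, and over 7713 coding genes 0.22. Windows of neighbouring genes share regions, so these values describe the lists and are given with no p.

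**Figure D3:**
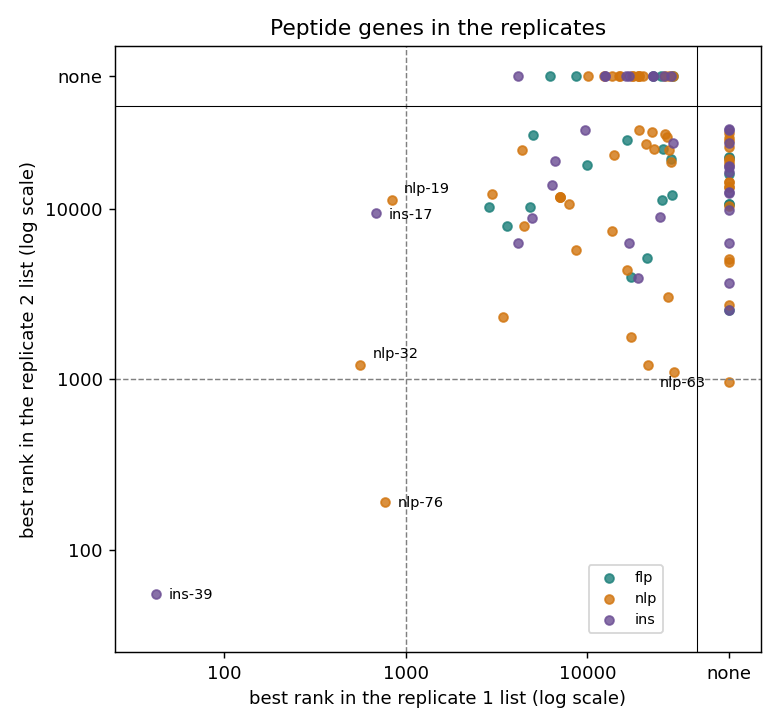
Best rank in the window in the replicate 1 list (x axis) and the replicate 2 list (y axis), both log axes, 1 point per peptide gene. Genes that lack a region in 1 list are in the bands marked none, and the 29 members with a region in neither list have no point. Dashed lines mark rank 1000. ins-39 (42 and 55) and nlp-76 (767 and 190) lie below 1000 on both axes.

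Peptide genes are short, and the share of best summits beyond the first 100 bp of the gene was larger than over all coding genes. The best pooled summit was over 100 and up to 500 bp downstream of the 5' end for 23 of 79 members (29.1%), against 15.6% of all coding genes with a region, while that stretch is 16% of the window. Of these 23, 21 were in the member's own gene body. By family they were 4 of 18 flp, 12 of 37 nlp and 7 of 24 insulin-like genes. The median gene length was 903 bp for members and 2027 bp for all coding genes, and its part in the position of the summits was not tested. From 500 bp upstream to 100 bp downstream, the stretch at the promoter, lay 17 members' summits (21.5%), against 28% of all coding genes. Between 500 and 1000 bp upstream lay 2 of 37 nlp, 5 of 18 flp and 6 of 24 insulin-like summits, against 19.7% of all coding genes.

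Most best summits lay nearer to the peptide gene than to a neighbour. The member's own 5' end was the nearest coding 5' end for 72 of 79 best summits (91.1%), against 70.1% of all coding genes with a region. The flp genes gave 18 of 18, the nlp genes 32 of 37 and the insulin-like genes 22 of 24. The median distance to the next coding 5' end was 2626 bp for members (flp 4515, nlp 3017, ins 2114), against 2134 bp for all coding genes. The insulin-like genes had a median close to that of all coding genes, but quartiles of 1608 and 2904 bp against 1067 and 3714 bp. The part of spacing in these shares was not tested. By annotation 41 of the 79 summits were intergenic, 21 in introns, 10 in coding exons, 6 in 3' UTRs and 1, that of daf-28, in a 5' UTR. These classes were not counted over all coding genes, so the counts have no background and describe the members only.

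**Figure D4:**
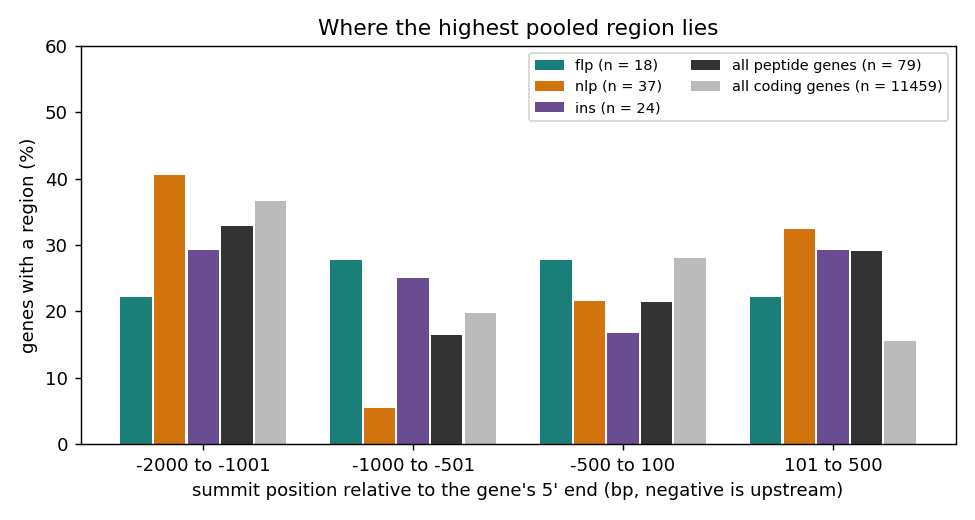
Share of genes with a pooled region (%) whose best summit lies in each stretch of the window (bp from the gene's 5' end), for flp, nlp and insulin-like genes, all peptide genes and all coding genes. In the last stretch the peptide genes reach 29.1%, against 15.6% of all coding genes.

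The families differ in where they lie in the genome, and the share of members with a region on X was close to that on the autosomes. X holds 13 of the 31 flp genes (41.9%), 19 of the 71 nlp genes (26.8%) and 2 of the 39 insulin-like genes (5.13%), while 13.7% of all coding genes are on X. Of the 34 members on X, 20 had a pooled region (58.8%), against 55.7% of all coding genes on X. On the autosomes 59 of 107 members had one (55.1%), against 57.6%. For the flp genes the counts were 9 of 13 on X and 9 of 18 on the autosomes. By chromosome the shares of members ran from 41.7% on V (10 of 24) to 76.5% on III (13 of 17), and those of all coding genes on these chromosomes were 54.1% and 65.4%.

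**Figure D5:**
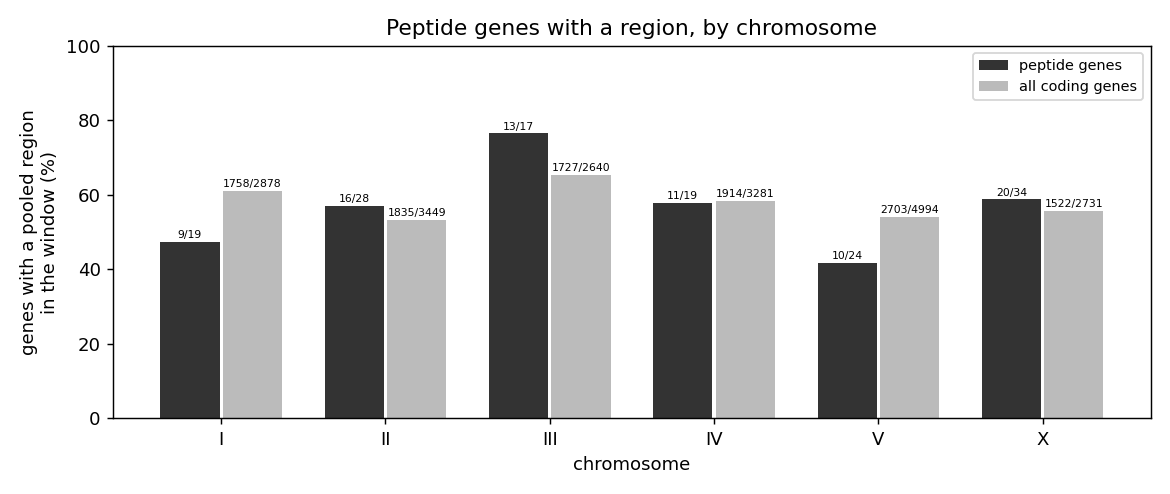
Share of genes with a pooled region in the window (%), by chromosome, for peptide genes (dark) and all coding genes (light), with counts above the bars. Peptide genes reach 76.5% on III, against 65.4% of all coding genes there.

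Both words of the planned search were rare at these summits. AGGTCA, a core element that nuclear receptors often recognise, was present on either strand within 50 bp of 1 of 76 distinct best summits (1.32%), that of flp-18, against 2.52% of all pooled regions. GAGAGA was at 4 of 76 (5.26%), near flp-2, nlp-61, nlp-69 and nlp-82, against 6.67%. Words found earlier at strong regions of these data were added afterwards, so their presence at ins-39, itself a strong region, is no separate evidence. CGCGCA, on either strand, was at 1 summit, that of ins-39, against 1.61% of all pooled regions, and CCTGCG was at ins-39 and ins-27, against 1.14%. In the ins-39 stretch CCTGCG and the reverse complement of CGCGCA overlap, and together they are the run of capitals printed above. A match describes the sequence and is not a binding site.

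Lists of genes that make, release or receive these peptides are short, apart from the receptors, and their shares in the top 1000 rest on 1 gene at most. Of 12 genes of peptide processing and release, 7 had a pooled region (58.3%) and 1 was in the top 1000 (8.33%, against 3.99% of all coding genes). That was sbt-1, the 7B2-like chaperone of the convertase EGL-3, with a pooled signal of 36.9 (rank 643, 68 bp upstream), 24.7 in replicate 1 (rank 264) and 10.5 in replicate 2 (rank 20219). egl-21 followed with 28.6 (rank 2982), and egl-3 and unc-31 had no pooled region. Of 10 genes of the insulin pathway, 6 had a region (60%) and 1 was in the top 1000 (10%). That was akt-2, a kinase downstream of DAF-2, at 41.5 (rank 336, 559 bp upstream), with 17.3 in replicate 1 and 20.2 in replicate 2 at nearly the same site. daf-2 had 18.6 (rank 20354), and daf-16 and age-1 had no pooled region.

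Of 103 genes matched by the names of peptide receptor families, 49 had a region (47.6%) and 1, dmsr-2, was in the top 1000 (0.971%) with a signal of 36 (rank 741) and signals of 11.9 and 21.2 in replicates 1 and 2. The peptide gene lury-1 matched these names too and is among the 49. Of 7 peptide genes outside the name rule, such as pdf-1 and pdf-2, 6 had a region and none was in the top 1000. The share of all coding genes is 57.4% for a region and 3.99% for the top 1000, and no gene of these 4 lists had an IDR peak in its window, which for the receptors allows a share of up to 2.91%.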

How the data were processed

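Regions came as lists in narrowPeak format on build ce11. The deposited signal (column 7) is the peak caller's value per region, and the deposited −log10 q-value was printed as a q-value. Per the deposited file records, each replicate list was made from 1 replicate, the pooled list from both, each with a control alignment as a parent, and the IDR list from these 3. Aligner, caller, settings and IDR threshold: not given in the sources used here. Neither the control nor the ce10 lists were analysed here. Depth is unknown.

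The summit is the deposited start plus the deposited offset. Regions were ranked by signal within a list. Genes and transcripts came from Ensembl, with the 5' end of the gene as the TSS, and chromosome ends in the RefSeq WBcel235 genome were passed by 0 regions. No statistical test was made. Limits for a count of 0 (3 of the total) cover counting error over genes only. Window assignment was checked on 200 planted summits, all 200 placed rightly. Protein sequences were not used here.

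The members, lists and rules were chosen with earlier results of these data known. Named genes are members with an IDR peak or a top 1000 region, the 5 highest of each family, those in the top 1000 of both replicates, 14 well-known genes and those with strong regions at the window's edges; others are named after their values were seen. Alternatives were other windows, every transcript's 5' end, own-gene summits, rank limits, match distances, region centres and each replicate alone. Python 3.11.15, numpy 2.4.6, scipy 1.17.1 and matplotlib 3.10.9 were used.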

Additional observations from a re-analysis of the deposited data

How the results depend on the processing

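Of 50 alternatives over 9 results, 33 stayed within 1.5 times the main value and 17 did not. Shares of all coding genes are given in the report for each replicate alone and not for the other alternatives. The member counts under those others thus have no background beside them, and do not show whether members stayed near it. Window width moved the counts most: members with a region were 79 in the main window, 23 from 500 bp upstream to 100 bp downstream and 49 from 1000 bp upstream to 250 bp downstream. In these windows flp genes with a region were 5 and 11, nlp genes 11 and 24, and insulin-like genes 7 and 14, as the construction of a shorter window implies. The narrowest window left 0 members in the top 1000, 0 with an IDR peak, since the ins-39 summit is outside it, and 5 with a summit matched in both replicates. Members in the top 1000 were 2, with 3 to 5 when 1 replicate was left out (5 without replicate 2), 1 with the limit at 500 and 9 at 3000. Summits within 200 bp gave 27 members matched in both replicates, against 16 at 100 bp, and ins-39 is past the 100 bp limit by the distance given in the report. An alternative chosen after seeing the data, the nearest coding 5' end at any distance, gave 8 members in the top 1000 and 3 with an IDR peak. Leaving out 1 replicate gave 78 to 84 members with a region, 17 to 18 flp, 41 to 43 nlp and 20 to 23 insulin-like genes. Every transcript's 5' end and own-gene summits moved none of the counts of members they were run on by over 1.5 times, and region centres, run on the median highest signal alone, left it at 20.9. No paired analysis was possible because both samples belong to 1 group. The limits set by sequencing depth could not be examined without read counts.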
